A study of Rattus norvegicus with 4 samples.

Results

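The opioid peptide and receptor genes were followed across nuclei of the rat orbitofrontal cortex. They are 7 genes of the 25399 in the deposited gene table: Penk (ENSRNOG00000008943), Pdyn (ENSRNOG00000026036) and Pnoc (ENSRNOG00000014231), which encode the peptide precursors, and Oprm1 (ENSRNOG00000018191), Oprd1 (ENSRNOG00000010531), Oprk1 (ENSRNOG00000007647) and Oprl1 (ENSRNOG00000016768), which encode the receptors. They were taken by symbol, and each symbol was carried by 1 identifier. Male wild-type Sprague-Dawley rats, 8 weeks old, received METH (methamphetamine) at 1 mg/kg or saline by intraperitoneal injection for 7 days and were killed under pentobarbital, which both groups shared. Each group had 2 libraries of single nuclei; the design text names 4 animals per group without saying how they were divided among the libraries. P-values therefore measure the spread between these libraries only, part of which may be technical.

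Opioid peptides are cut from larger precursors: proenkephalin gives the enkephalins, prodynorphin the dynorphins, and prepronociceptin gives nociceptin. The mu, delta and kappa receptors (Oprm1, Oprd1, Oprk1) and the nociceptin receptor (Oprl1) couple to inhibitory G proteins, which open potassium channels, close calcium channels and lower cyclic AMP. In the cortex, enkephalin and dynorphin are known from subsets of GABA-releasing interneurons, and mu receptors are known for quieting interneurons and thereby releasing their targets from inhibition. The orbitofrontal cortex is a prefrontal area that holds learned values of outcomes.

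Between 7618 and 14755 nuclei per library, 39297 in all, passed the filters, with 33367180 to 35898891 UMIs (unique molecular identifiers, each a counted RNA molecule) per library. Clusters were named from marker lists, with the 7 genes left out of the clustering, and a name means only that its markers led there, hence "-like". The types were Vip-, Lamp5-, Sst- and Pvalb-like inhibitory nuclei, and L2/3 IT-, L5 ET- and L6 CT-like excitatory nuclei (intratelencephalic, extratelencephalic and corticothalamic projection neurons). There were also 5 further excitatory types, and glial and vascular types. Those 5 are known here by genes among their 10 leading genes. Genes of any marker list were taken first, so the genes in a name need not rank highest. No cluster took the name of striatal projection neurons, the main enkephalin and dynorphin cells of the neighbouring striatum, although genes of their marker list were found: the summed level of its 8 genes was 318.0 and 334.5 CPM in the METH libraries, against 368.2 and 323.3 CPM in the saline libraries, in Vip-like nuclei, and 378.9 and 368.5 CPM against 445.6 and 385.7 CPM in Sst-like nuclei. Most of it was Pde10a (277.8 to 329.7 CPM in Vip-like and 325.8 to 401.8 CPM in Sst-like nuclei), and Adora2a was at 0 in both types in every library. Over all nuclei the summed level was 312.7 and 325.6 CPM in the METH libraries, against 404.1 and 339.2 CPM in the saline libraries. In L2/3 IT-like nuclei it was 291.4 and 305.0 CPM, against 402.2 and 304.4 CPM. The part of striatal nuclei in the levels of Vip- and Sst-like nuclei was not tested. Saline replicate 1 stood apart: it had the most nuclei and the lowest depth (median UMIs per nucleus were 2889 and 2800 in the METH libraries, 1961 in saline replicate 1 and 3515 in saline replicate 2), and it supplied 1176 of the 1380 nuclei of 1 large cluster that met no name. Pairs of libraries shared 21 to 48 cell barcodes, at most 0.535% of the smaller library. Levels are given as CPM, counts per 1e6, a gene's UMIs scaled to the UMIs of the same type and library, and rank types within a gene; they do not rank genes against each other, since gene length was not taken into account.

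The genes were held by different classes of nuclei. Inhibitory nuclei were 11.4% of all nuclei and held 11.3% of all UMIs, but they held 69.5% of the 508 Pnoc UMIs, 50.4% of the 127 Pdyn UMIs and 32.4% of the 781 Penk UMIs. Excitatory nuclei, with 73.1% of all UMIs, still held more Penk UMIs than inhibitory nuclei in every library. They held 89 and 71 in the METH libraries, against 73 and 60 in inhibitory nuclei. In the saline libraries they held 123 and 101, against 40 and 80. For the receptors, excitatory nuclei, with 73.1% of all UMIs, held 85.4% of the 20875 Oprm1 UMIs, 83.8% of the 6330 Oprd1 UMIs and 77.4% of the 633 Oprl1 UMIs. Oprk1 differed from the other receptors in that glia held the largest share, 40.6% of its 128 UMIs, although glia held 12.6% of all UMIs. These shares are descriptions of 4 libraries pooled and were not tested.

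**Figure D1:**
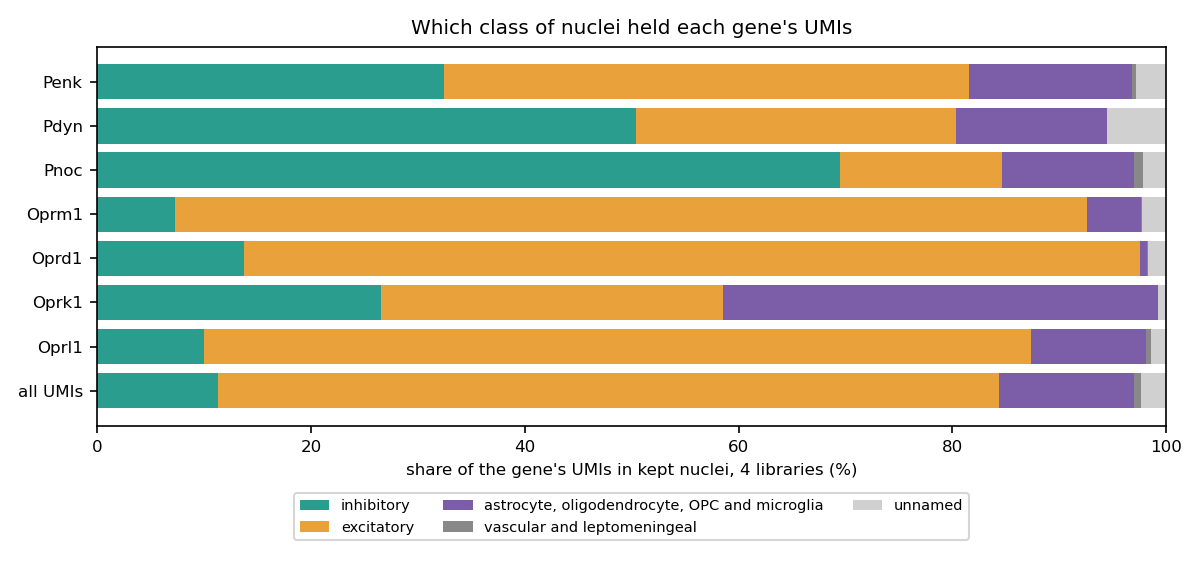
Share of each gene's UMIs found in inhibitory, excitatory, glial, vascular and unnamed nuclei, in percent, with the 4 libraries summed; the lowest bar gives the same for all UMIs. Pnoc and Pdyn have most or about equal parts of their UMIs in inhibitory nuclei (69.5% and 50.4%), Oprm1 and Oprd1 in excitatory nuclei (85.4% and 83.8%), and Oprk1 has its largest part in glia (40.6%).

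Among the peptide precursors, Penk was highest in Vip-like nuclei, interneurons that mainly contact other interneurons. Its level there was 57.5 and 61.2 CPM in the METH libraries, against 42.6 and 84.0 CPM in the saline libraries. The METH values lay between the saline values, so the groups overlapped. No other type came near: the next, oligodendrocyte-like nuclei, averaged 8.88 ± 3.97 CPM (SD, n = 4 libraries), against 61.3 ± 17.1 CPM in Vip-like nuclei, and its range did not reach the Vip-like range. From there down to the Pvalb-like nuclei (1.48 ± 0.943 CPM), each type overlapped its neighbour in the order. In Lamp5-like nuclei, which are related interneurons, Penk averaged 3.63 ± 2.58 CPM.

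Penk was unevenly spread within the Vip-like type. Of 1192 Vip-like nuclei, 119 (9.98%) held a Penk UMI, and 46 of these held more than 1, up to 10 in a single nucleus. In oligodendrocyte-like nuclei, taken as a measure of free RNA, 1.05% held a Penk UMI and none held more than 1. After every nucleus was thinned to 1000 UMIs the shares were 5.34% in Vip-like and 0.815% in oligodendrocyte-like nuclei. In L6 CT-like nuclei 2.40% held a Penk UMI before thinning and 0.741% after it. Of the 64 L6 CT-like nuclei with Penk, 14 held more than 1 UMI, at a median depth of 4892 UMIs, against 0 of 34 oligodendrocyte-like nuclei with Penk, at 1153 UMIs. Over the 20 named types, the gene whose pattern was most like that of Penk was Tpbg (Pearson r = 0.828 on log2(CPM + 1) averaged over libraries), followed by Mfsd9 (r = 0.759) and Slc18a3 (r = 0.745). Slc18a3 encodes the vesicular transporter of acetylcholine, which some cortical Vip interneurons of rodents carry. These correlations describe 20 types that share the same 4 libraries.

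Pdyn was found mainly in Sst-like nuclei, interneurons that contact distal dendrites. The METH libraries had 16.3 and 11.4 CPM and the saline libraries 14.3 and 9.93 CPM, from 21, 12, 15 and 12 UMIs in that order, and the groups overlapped. The level in Sst-like nuclei averaged 12.97 ± 2.87 CPM (SD, n = 4), and the next types, microglia-like (2.16 ± 2.69 CPM) and L5 ET-like nuclei (2.13 ± 0.850 CPM), did not reach its lowest library. Of 1319 Sst-like nuclei, 54 (4.09%) held a Pdyn UMI, with at most 2 in a nucleus; in Pvalb-like nuclei 1 of 1491 did, and in oligodendrocyte-like nuclei 0.0925% did. Genes with patterns like that of Pdyn over the types included Xcl1 (r = 0.863) and Prph (r = 0.768). With 127 UMIs in all, levels below about 1 CPM in the larger types rest on single molecules.

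Pnoc had a broader interneuron pattern. Lamp5-like nuclei, which include neurogliaform cells that release GABA diffusely, had 57.3 and 39.1 CPM in the METH libraries, against 50.3 and 60.9 CPM in the saline libraries. Vip-like nuclei had 41.2 and 48.1 CPM in the METH libraries and 28.9 and 48.3 CPM in the saline libraries. The ranges of these types overlapped each other, and in each type the METH and saline libraries overlapped. Sst-like nuclei followed with 16.7 ± 5.65 CPM (SD, n = 4), clear of the Vip-like range, and Pvalb-like nuclei averaged 6.84 ± 1.85 CPM. Excitatory types averaged 0.60 to 0.999 CPM, and the sharp step between interneurons and excitatory nuclei was present in every library. Shares of nuclei with a Pnoc UMI, after thinning to 1000 UMIs, were 5.85% in Lamp5-like, 4.63% in Vip-like, 1.34% in Sst-like and 0.362% in oligodendrocyte-like nuclei. The genes most like Pnoc were Dlx5 (r = 0.922), Dlx2 (r = 0.920) and Dlx6 (r = 0.915), homeobox genes of forebrain GABA neurons; Dlx6 was also on the marker list for inhibitory nuclei.

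Peptide genes rarely met in the same nucleus. In Vip-like nuclei 13 held both a Penk and a Pnoc UMI; 10.9% of nuclei with Penk had Pnoc, against 10.1% of nuclei without Penk. Of the 54 Sst-like nuclei with Pdyn, 3 (5.56%) also held Pnoc, against 5.22% of the others. At this depth, holding one of these peptide UMIs thus went with nearly the same share of the other.

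**Figure D2:**
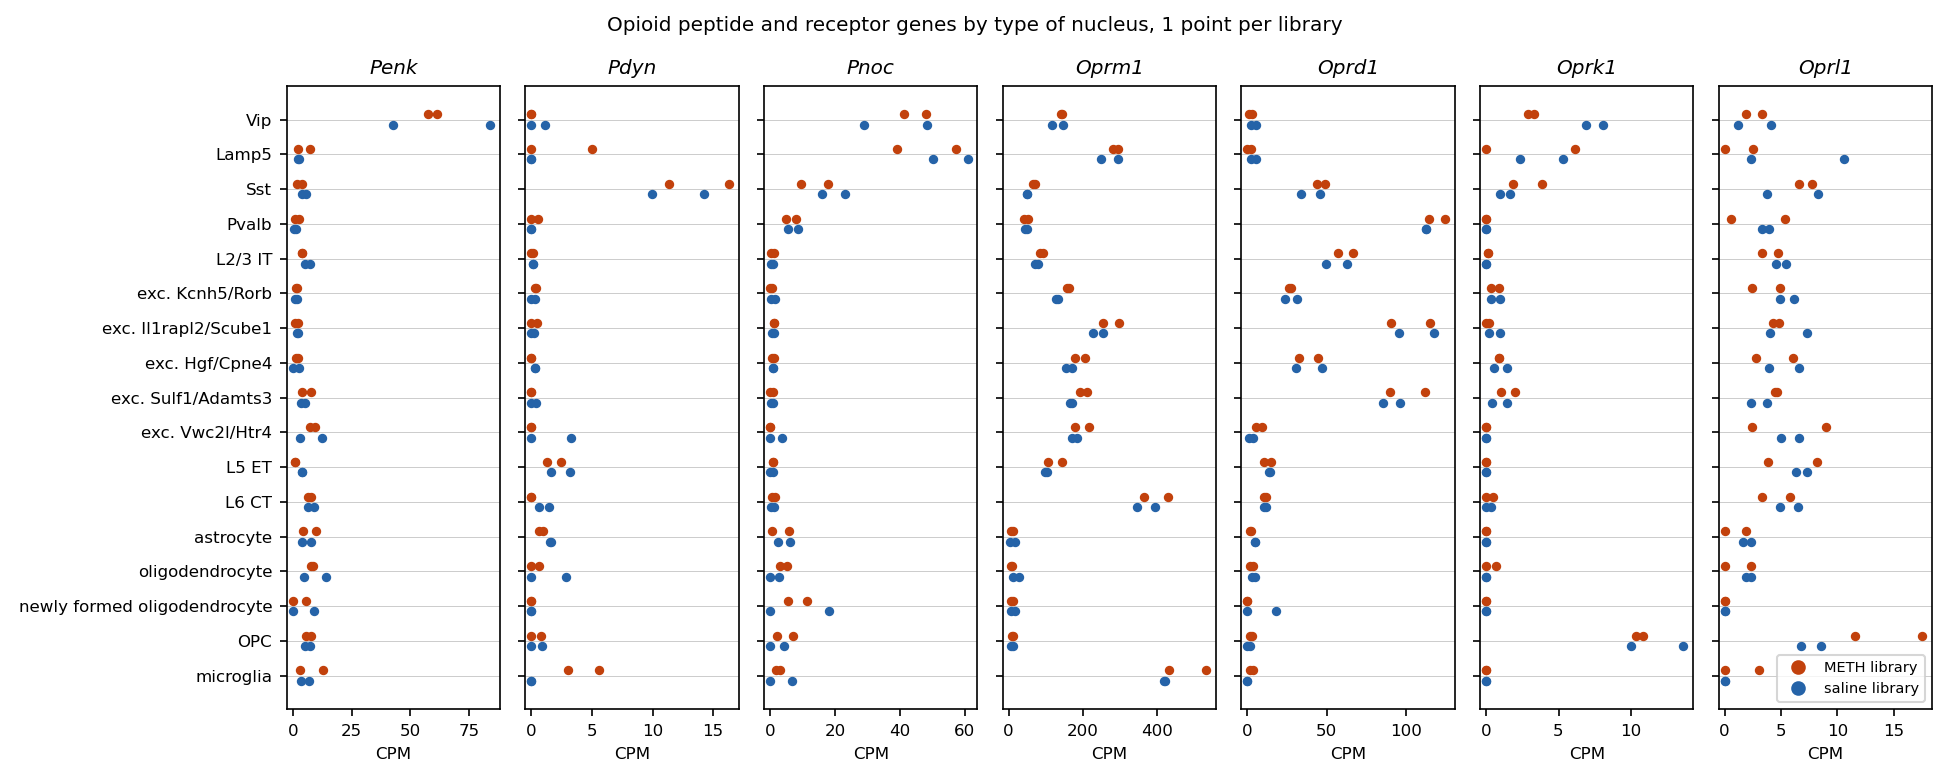
Level of each gene in CPM (horizontal axis, one scale per gene) in 17 types of nuclei (vertical axis), with 1 point per library, METH above saline. The mark "exc." stands for excitatory types named by genes among their 10 leading genes. Penk stands out in Vip-like nuclei (42.6 to 84.0 CPM), Pdyn in Sst-like, Pnoc in Lamp5- and Vip-like, Oprm1 in microglia- and L6 CT-like, Oprd1 in Pvalb-like and several excitatory types, and Oprk1 in OPC-like nuclei.

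Of the receptors, Oprm1 had the most UMIs and the widest distribution. RefSeq (GRCr8) gives it more than 1 start site; the table of start-site windows used here held 2 windows for it, 1 for Oprd1 and 1 for Pdyn, and none for the other 4 genes. The Oprd1 window and 1 of the Oprm1 windows are shown so that both receptors can be read side by side, each from 250 bases before to 50 bases after the start, 5′ to 3′ on the gene's strand, with GGGCGG on either strand in capitals. The Oprm1 window shown lies at chr1:45585733-45586032 (plus strand) and the Oprd1 window at chr5:149624950-149625249 (minus strand).
Oprm1: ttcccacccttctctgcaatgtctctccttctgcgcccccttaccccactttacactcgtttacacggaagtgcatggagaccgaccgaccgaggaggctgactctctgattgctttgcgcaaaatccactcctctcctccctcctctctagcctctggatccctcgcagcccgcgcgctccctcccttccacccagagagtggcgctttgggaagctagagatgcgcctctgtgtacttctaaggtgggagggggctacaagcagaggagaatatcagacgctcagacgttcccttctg
Oprd1: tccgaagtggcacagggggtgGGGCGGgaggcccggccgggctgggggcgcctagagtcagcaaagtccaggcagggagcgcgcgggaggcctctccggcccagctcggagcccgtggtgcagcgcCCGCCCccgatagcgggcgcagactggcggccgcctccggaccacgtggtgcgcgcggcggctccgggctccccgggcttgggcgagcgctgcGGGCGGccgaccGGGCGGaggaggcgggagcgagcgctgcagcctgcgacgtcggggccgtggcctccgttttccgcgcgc
The Oprd1 window is 79.0% G or C, the Oprm1 window shown 57.7% and the other Oprm1 window (chr1:45565121-45565420, plus strand) 39.0%, and the median of 33465 rat windows is 51.7%. Oprd1's window holds 4 matches to GGGCGG, a sequence that zinc finger factors of the Sp family are known to bind; 33.1% of all windows hold at least 1, and the Oprm1 windows hold none. Neither Oprm1 window nor the Oprd1 window holds TATAAA (14.2% of all windows), TGANTCA (7.33%) or TGACGTCA (1.83%) on either strand, while the Pdyn window holds 1 TATAAA. No 2 matches overlapped, and matches are descriptions of these letters only.

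Oprm1 was highest in microglia-like nuclei, the immune cells of the brain. Their level was 431.5 and 533.0 CPM in the METH libraries, against 420.1 and 422.7 CPM in the saline libraries. L6 CT-like nuclei, which project to the thalamus, came next with 366.2 and 428.4 CPM in the METH libraries, against 346.8 and 394.6 CPM in the saline libraries. The ranges of these 2 types overlapped, and every other type lay below both. Lamp5-like nuclei averaged 280.5 ± 22.1 CPM and the excitatory nuclei led by Il1rapl2 and Scube1 averaged 258.0 ± 29.2 CPM (SD, n = 4 each), and they overlapped each other. The types led by Vwc2l and Htr4, by Sulf1 and Adamts3, by Hgf and Cpne4 and by Kcnh5 and Rorb followed at 187.4, 185.0, 177.3 and 145.4 CPM on average, each overlapping the next. Vip-like nuclei averaged 136.9 ± 13.7 CPM, L5 ET-like nuclei 113.3 ± 20.5 CPM and L2/3 IT-like nuclei 82.2 ± 8.90 CPM. The lowest neuronal levels were those of Sst-like (59.0 ± 11.1 CPM) and Pvalb-like nuclei (46.3 ± 4.27 CPM). Astrocyte-, oligodendrocyte- and OPC-like nuclei (OPC, oligodendrocyte precursor) averaged 9.68, 14.0 and 9.53 CPM.

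Shares of nuclei with Oprm1 depended on depth. Before thinning, 63.9% of L6 CT-like and 33.2% of microglia-like nuclei held an Oprm1 UMI, with up to 14 in an L6 CT-like nucleus and up to 6 in a microglia-like nucleus. After thinning to 1000 UMIs the shares were 33.5% in microglia-like, 30.5% in L6 CT-like, 22.1% in Lamp5-like, 12.6% in Vip-like, 6.86% in L2/3 IT-like and 0.951% in oligodendrocyte-like nuclei. The order of the shares was not that of the CPM levels throughout: the type led by Vwc2l and Htr4 had 14.7%, below the 17.9% of the type led by Sulf1 and Adamts3 and the 15.9% of the type led by Hgf and Cpne4. Microglia-like nuclei had a median of 995 UMIs where Oprm1 was found and 893 where it was not, so most of them were left out of the thinned share. The microglial marker Cx3cr1 was at 796.3 and 693.8 CPM in these nuclei of the METH libraries, and at 613.0 and 677.7 CPM in those of the saline libraries.

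Oprm1 counts are uncertain in one respect. In RefSeq GRCr8, Oprm1 overlaps Ipcef1 on the opposite strand over 164471 bases, which is 64.9% of Oprm1 and 81.1% of Ipcef1, and no source used here says whether the counting used the strand. Ipcef1 was also the gene most like Oprm1 over the 20 types, with r = 0.960 among 13127 genes compared; Hacd4 (r = 0.901) and Fmnl1 (r = 0.891) followed. The ratio of Oprm1 to Ipcef1 UMIs was 2.42 to 2.73 in 7 of the 8 excitatory types and 2.82 in Lamp5-like nuclei. It was higher in the type led by Vwc2l and Htr4 (4.45), in microglia-like (3.97), Sst-like (4.47), Pvalb-like (5.12) and Vip-like nuclei (12.6, from 491 and 39 UMIs). The part of reads shared between the genes in these levels was not tested.

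**Figure D3:**
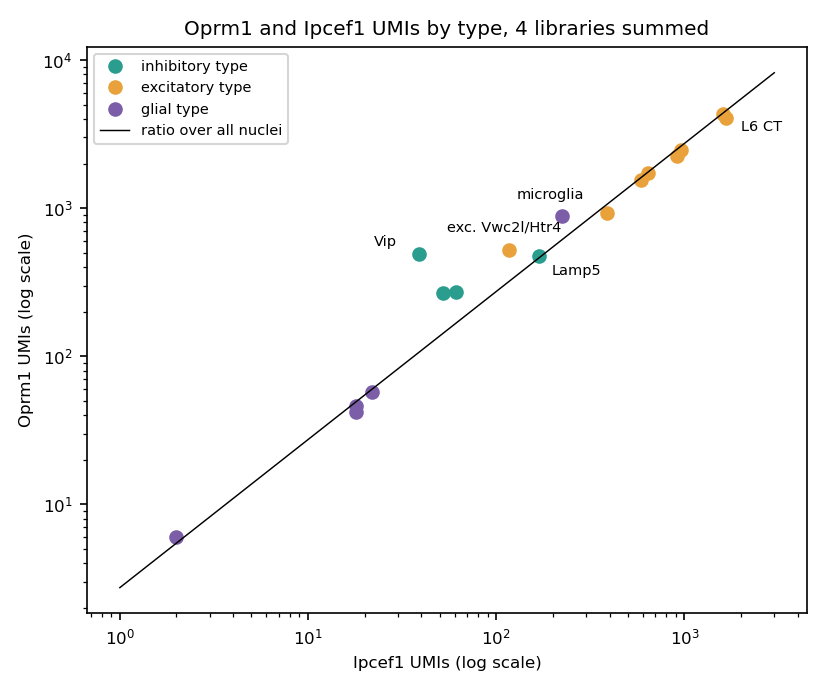
UMIs of Oprm1 (vertical, log scale) against UMIs of the overlapping gene Ipcef1 (horizontal, log scale) in 17 types of nuclei, 4 libraries summed; the line marks the ratio over all nuclei, 2.74. Most excitatory types lie near the line, while Vip-like nuclei lie well above it with 491 Oprm1 and 39 Ipcef1 UMIs.

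Oprd1, the delta receptor, had an unlike order. Pvalb-like nuclei, fast-spiking interneurons that contact cell bodies, led with 114.7 and 124.7 CPM in the METH libraries, against 112.9 and 113.0 CPM in the saline libraries. Here the METH values lay just above the saline values, by less than the spread within the METH libraries. The excitatory nuclei led by Il1rapl2 and Scube1 (104.8 ± 13.9 CPM) and by Sulf1 and Adamts3 (96.1 ± 11.4 CPM) overlapped the Pvalb-like range or each other. L2/3 IT-like nuclei averaged 59.3 ± 7.34 CPM, Sst-like nuclei 43.3 ± 6.58 CPM and L6 CT-like nuclei 11.2 ± 0.506 CPM. Vip- and Lamp5-like nuclei, which averaged 136.9 and 280.5 CPM of Oprm1, had 2.94 ± 1.86 and 2.42 ± 2.18 CPM of Oprd1. That was no more than the 3.12 ± 1.33 CPM of oligodendrocyte-like nuclei. Pvalb-like nuclei held an Oprd1 UMI in 30.1% of cases (10.8% after thinning to 1000 UMIs), Vip-like nuclei in 0.839% and oligodendrocyte-like nuclei in 0.339%. The genes most like Oprd1 were Nup93 (r = 0.875), Tctex1d1 (r = 0.866) and Plaat1 (r = 0.860).

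The mu and delta receptors met where both were common. In the excitatory nuclei led by Il1rapl2 and Scube1, 773 of 2745 nuclei held UMIs of both; 44.5% of nuclei with Oprm1 had Oprd1, against 32.2% of nuclei without Oprm1. Among Pvalb-like nuclei the same shares were 38.5% and 28.9%. Nuclei with Oprd1 were also deeper, with a median of 4407 UMIs against 2866 in Pvalb-like nuclei without it, and the part of depth in these differences was not tested.

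Oprk1, the kappa receptor that dynorphins act on, was scarce, with 128 UMIs. OPC-like nuclei, the dividing precursors of oligodendrocytes, were highest with 10.4 and 10.8 CPM in the METH libraries, against 10.0 and 13.6 CPM in the saline libraries, and the groups overlapped. Their range did not overlap that of the next type, Vip-like nuclei (5.27 ± 2.58 CPM), which overlapped Lamp5-like (3.45 ± 2.82 CPM) and Sst-like nuclei (2.10 ± 1.26 CPM). Of 2908 OPC-like nuclei, 50 (1.72%) held an Oprk1 UMI; of the 3244 oligodendrocyte-like nuclei 0.0308% did. No UMI was counted in Pvalb-, L5 ET-, astrocyte- or microglia-like nuclei of any library; in Pvalb-like nuclei a count of 0 allows up to 1.66 and 2.69 CPM in the METH libraries and 2.38 and 2.02 CPM in the saline libraries (3 counts, counting error only). The genes most like Oprk1 were Asic4 (r = 0.824), Calb2 (r = 0.819), a marker of Vip interneurons that was on the list for that type, and Tmem132e (r = 0.7998).

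Oprl1, the nociceptin receptor, was thinly spread. OPC-like nuclei averaged 11.1 ± 4.70 CPM (SD, n = 4), and Sst-like (6.62 ± 2.00 CPM), L5 ET-like (6.41 ± 1.86 CPM) and the other excitatory types (3.82 to 5.74 CPM) overlapped in one continuous order. In oligodendrocyte-like nuclei it averaged 1.65 ± 1.12 CPM. Only 2 of the 50 OPC-like nuclei with Oprl1 held more than 1 UMI, and 1 of them also held Oprk1. The genes most like Oprl1 were Scn3a (r = 0.867), Map3k9 (r = 0.857) and Gabra3 (r = 0.856), which encode a sodium channel, a kinase and a GABA receptor subunit.

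METH was compared with saline by edgeR's quasi-likelihood test on UMIs summed per library, in 20 groups of nuclei (17 types with at least 50 nuclei in every library, both neuron classes and all nuclei), with Benjamini-Hochberg adjustment over all genes tested in a group and calls at an adjusted p under 0.05. None of the 7 genes was called: of 62 pairs of a gene and a group that passed the filter on low counts, 0 were called higher and 0 lower, with 10 at an unadjusted p under 0.05, and DESeq2 called 0 as well. These 10 are 16.1% of the pairs, against 4.55% (9269 of 203628) over all genes and groups. Of them 9 are Oprm1 and 1 is Penk, in overlapping groups of nuclei from the same libraries. They did not share a direction: Penk in L2/3 IT-like nuclei (-0.66) and Oprm1 in oligodendrocyte-like nuclei (-1.20) were lower in METH, and the others were higher. Over all genes and groups 0.0167% of pairs were called (34 of 203628), and a list of 62 pairs with no call is read against that background. The other 78 pairs had too few UMIs to be tested, among them every pair of Oprk1 with a type other than OPC-like and every pair of Pdyn with a type other than Sst-like; those that passed did so partly by being high somewhere. The median log2 fold change over the tested pairs was 0.03, and the medians over all genes lay between -0.01 and 0.01 in every group.

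Among the peptides, the fold changes in the leading types were small beside their errors. Penk in Vip-like nuclei had a log2 fold change of -0.12 (SE 0.226, adjusted p = 0.994 by edgeR), Pdyn in Sst-like nuclei 0.23 (SE 0.415, adjusted p = 1.0) and Pnoc in Lamp5-like nuclei -0.23 (SE 0.324, adjusted p = 0.998). Pnoc in Sst-like nuclei was at 17.9 and 9.47 CPM in the METH libraries, against 16.2 and 23.2 CPM in the saline libraries, with a log2 fold change of -0.50 (SE 0.371); the groups overlapped. Without saline replicate 2 the Penk value in Vip-like nuclei became 0.49, since that library alone had 84.0 CPM. In L2/3 IT-like nuclei Penk was at 4.05 and 3.93 CPM in the METH libraries, against 7.36 and 5.32 CPM in the saline libraries, a log2 fold change of -0.66 (SE 0.274, unadjusted p = 0.0306, adjusted p = 0.999 by edgeR). Both METH values lay below both saline values there, from 23 and 29 UMIs against 57 and 35 UMIs, at a level near that of oligodendrocyte-like nuclei.

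Oprm1 passed the test in no type. The log2 fold change was above 0 in 14 of the 16 types in which it was tested. All 8 excitatory types were among them, with values between 0.12 and 0.32. Over all genes the median lay between -0.01 and 0.01 in every group, so a value above 0 in a single type is common. In the excitatory nuclei led by Kcnh5 and Rorb, Oprm1 was at 157.8 and 162.9 CPM in the METH libraries, against 127.3 and 133.5 CPM in the saline libraries. The groups did not overlap, the log2 fold change was 0.32 (SE 0.0947), and the adjusted p of 0.453 was the smallest of the 62 pairs (unadjusted p = 0.00182, edgeR). L2/3 IT-like nuclei had 85.7 and 92.7 CPM in the METH libraries, against 72.3 and 78.1 CPM in the saline libraries (log2 fold change 0.26, SE 0.0867, adjusted p = 0.999 by edgeR). The type led by Sulf1 and Adamts3 had 191.8 and 212.3 CPM in the METH libraries, against 164.5 and 171.2 CPM in the saline libraries (0.29, SE 0.106), and the type led by Hgf and Cpne4 177.9 and 205.5 CPM, against 155.7 and 170.2 CPM (0.26, SE 0.0873). Both METH values lay above both saline values in 5 of the 8 excitatory types, and 13.9% of all gene and type pairs tested in those types did the same. No such share over all genes is given here for the other types.

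The types are not separate evidence, since their nuclei come from the same 4 libraries. In each of the 8 excitatory types METH replicate 2 had the highest Oprm1 level and saline replicate 1, the shallowest library, the lowest. Over all excitatory nuclei Oprm1 was at 182.7 and 194.7 CPM in the METH libraries, against 156.7 and 177.7 CPM in the saline libraries, a log2 fold change of 0.20 (SE 0.0718, unadjusted p = 0.02, adjusted p = 0.999 by edgeR). Without saline replicate 1 it was 0.11 and without saline replicate 2 it was 0.29. It was 0.16 when the summed UMIs were thinned at random to equal depth. Such a draw leaves a gene's expected level the same, so it cannot show what depth per nucleus does. Without saline replicate 1 the values in the single excitatory types were 0.02 to 0.28, and those of L6 CT-like nuclei were 0.02 without that library and 0.0037 without METH replicate 2. After the same thinning of summed UMIs, the type led by Vwc2l and Htr4 turned to -0.15. In the summed libraries more nuclei with Oprm1 and more Oprm1 per nucleus cannot be told apart. With each nucleus thinned to 1000 UMIs, 16.7% and 17.2% of excitatory nuclei held Oprm1 in the METH libraries, against 14.4% and 16.3% in the saline libraries. In L2/3 IT-like nuclei these shares were 7.43% and 8.47%, against 5.66% and 7.61%, and the groups overlapped. The shares were not tested.

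**Figure D4:**
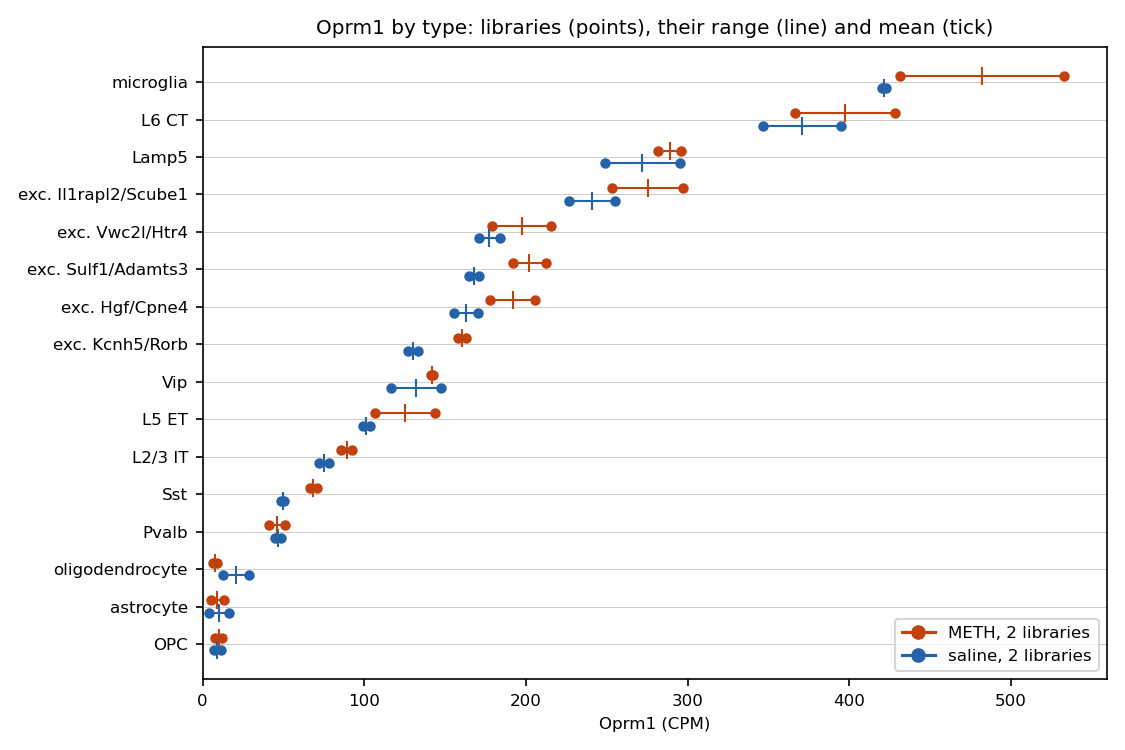
Oprm1 level in CPM (horizontal axis) by type of nucleus (vertical axis, ordered by the mean of 4 libraries); points are libraries, lines join the 2 libraries of a group, ticks are means, and METH lies above saline. Both METH libraries lie to the right of both saline libraries in L2/3 IT-, L5 ET-, Sst- and microglia-like nuclei and in the types led by Hgf and Cpne4, by Sulf1 and Adamts3 and by Kcnh5 and Rorb (157.8 and 162.9 against 127.3 and 133.5 CPM). The groups overlap in L6 CT-, Lamp5-, Vip- and Pvalb-like nuclei and in the types led by Il1rapl2 and Scube1 and by Vwc2l and Htr4. Of all gene and type pairs tested in the excitatory types, 13.9% had both METH libraries above both saline libraries. No such share is given for the other types.

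Among inhibitory types the largest Oprm1 value was that of Sst-like nuclei, with 70.7 and 66.3 CPM in the METH libraries, against 48.5 and 50.5 CPM in the saline libraries. The groups did not overlap (log2 fold change 0.47, SE 0.196, adjusted p = 1.0 by edgeR). Pvalb-like nuclei had a value of 0.0025 (SE 0.191), Lamp5-like nuclei 0.09 (SE 0.157) and Vip-like nuclei 0.10 (SE 0.156). The class-by-treatment term, which asks whether the METH effect differs between inhibitory and excitatory nuclei, was 1.74e-05 on the log2 scale for Oprm1 (SE 0.0567), 0.34 for Penk (SE 0.305) and 1.24 for Pdyn (SE 0.663, unadjusted p = 0.0777). None of the 7 genes was called on it, nor was any of the 14997 genes (0.0%), with 519 genes but none of the 7 at an unadjusted p under 0.05; DESeq2 called none of the 7. Microglia-like nuclei had a log2 fold change of 0.20 (SE 0.144), which was 0.04 without METH replicate 2. In oligodendrocyte-like nuclei Oprm1 was at 6.18 and 8.58 CPM in the METH libraries, against 28.6 and 12.5 CPM in the saline libraries (-1.20, SE 0.506, adjusted p = 1.0 by edgeR). These levels come from 8 to 13 UMIs per library and are close to those of astrocyte- and OPC-like nuclei.

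Ipcef1, the overlapping gene, had fold changes close to those of Oprm1 in some types and apart from them in others. In the type led by Kcnh5 and Rorb its log2 fold change was -0.05 (SE 0.135), in the type led by Sulf1 and Adamts3 -0.11 (SE 0.148), and in the type led by Vwc2l and Htr4 -0.56 (SE 0.280), where Oprm1 had 0.32, 0.29 and 0.13 in that order. In the type led by Hgf and Cpne4 it was 0.27 (SE 0.123), in L5 ET-like nuclei 0.24 (SE 0.171) and in L6 CT-like nuclei 0.11 (SE 0.105), where Oprm1 had 0.26, 0.29 and 0.12. In L2/3 IT-like nuclei it was 0.07 (SE 0.1135), where Oprm1 had 0.26. In the type led by Il1rapl2 and Scube1 it was 0.12 (SE 0.103), where Oprm1 had 0.21. None of the Ipcef1 values in the excitatory types was called. The difference between the genes was not tested.

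The remaining receptors shared no direction. Oprd1 was tested in 9 types, with log2 fold changes between -0.21 and 0.24; in Pvalb-like nuclei it was 0.06 (SE 0.122) and over all excitatory nuclei 0.07 (SE 0.109). Oprk1 in OPC-like nuclei had -0.20 (SE 0.457). Oprl1 had values below 0 in 6 of 7 types tested, and these 6 were all excitatory types from the same libraries, so they are not separate evidence. The median over all genes lay between -0.01 and 0.01 in every group. Over all excitatory nuclei Oprl1 was at 4.01 and 4.78 CPM in the METH libraries, against 5.04 and 5.57 CPM in the saline libraries (-0.25, SE 0.171, adjusted p = 0.999 by edgeR). The exception was OPC-like nuclei, with 17.5 and 11.5 CPM in the METH libraries, against 8.58 and 6.80 CPM in the saline libraries. There both METH values, from 22 and 16 UMIs, lay above both saline values, from 6 and 8 UMIs (0.94, SE 0.482, unadjusted p = 0.0525, adjusted p = 1.0 by edgeR). The difference between OPC-like and excitatory nuclei in this value was not tested.

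**Figure D5:**
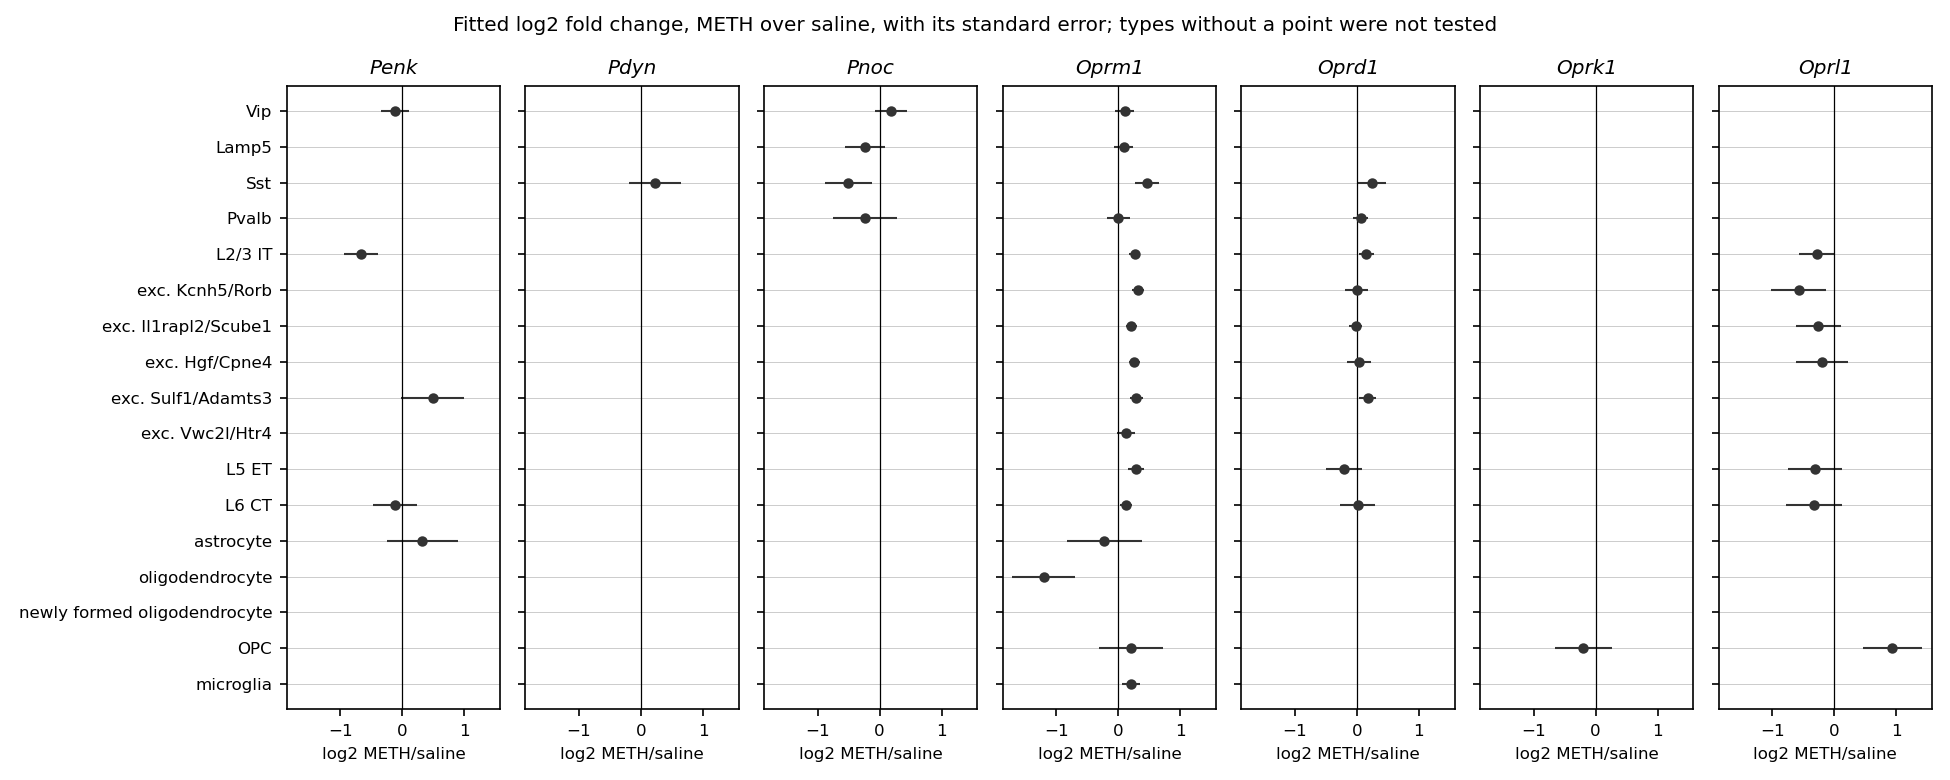
Log2 fold change of METH over saline (horizontal axis) with its standard error, by type of nucleus (vertical axis), for each gene; types with no point had too few UMIs to be tested. Oprm1 points lie right of 0 in 14 of 16 types, between 0.12 and 0.32 in the excitatory types, and no point passed the test. The median over all genes lay between -0.01 and 0.01 in every group, and all types come from the same libraries.

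The genes around the opioid system were read from a list of 50 genes in the files, covering precursor processing, peptide breakdown, receptor kinases, arrestins, RGS proteins, channels, adenylyl cyclases and receptor partners. Of 723 pairs of a list gene and a group tested, 0 were called higher and 0 lower by edgeR, with 43 (5.95%) at an unadjusted p under 0.05, against 4.55% over all genes and groups; DESeq2 called 0 as well. In excitatory nuclei 45 were tested, 30 of them above 0, with a median log2 fold change of 0.04, against 0.00 over all genes. The smallest p there belonged to Rgs20, which speeds the shut-off of inhibitory G proteins: it was at 45.5 and 47.7 CPM in the METH libraries, against 35.3 and 38.4 CPM in the saline libraries (0.37, SE 0.0765, adjusted p = 0.999 by edgeR). Kcnj6, a subunit of the potassium channel that opioid receptors open, had 0.23 (SE 0.0839), and Pam, which amidates peptides, 0.15 (SE 0.0603). In inhibitory nuclei 42 were tested, 22 of them above 0, and the smallest p-values were those of Gpr83 (-0.54, SE 0.271), Kcnj6 (0.25, SE 0.129) and Grk5, a receptor kinase (-0.16, SE 0.103). Pomc, the precursor of beta-endorphin, had 14 and 22 UMIs in the METH libraries and 24 and 15 UMIs in the saline libraries, over all nuclei.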

How the data were processed

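The deposited files hold whole-number UMI counts per gene and nucleus for 4 libraries (10x Genomics 3′ chemistry, nuclear RNA, rat orbitofrontal cortex); the counts were deposited without normalization and come from Cell Ranger 7.0.0, as named in the file headers and in the submitters' processing notes. Those notes also name hg38, although the gene identifiers are those of rat Ensembl. No source used here names a rat build or says whether strand was used, so positions come only from RefSeq GRCr8. The 7 genes, the lists and the marker sets were chosen with earlier results of these data known, and the naming thresholds were set after the data were seen.

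Nuclei needed at least 500 genes and at most 5% mitochondrial UMIs; the highest Scrublet scores were removed as doublets, 0.8% per 1000 barcodes (803 and 612 in the METH libraries, 2638 and 553 in the saline libraries). Counts scaled to 10000 and logged were clustered in Scanpy 1.11.5 (3000 variable genes without the 7, 30 components, 20 neighbours, Leiden resolution 1); 1936 nuclei stayed unnamed. Named types needed a marker score of 0.4 and 3 markers found in 10% of nuclei. UMI counts were summed per library and type and tested with edgeR 4.0.16 (quasi-likelihood, robust, TMM, filterByExpr, two-sided); DESeq2 1.42.0 was an alternative. The fit was tested on simulated counts. The SE is the log2 fold change over the square root of F. Named were all 7 genes in every type, the 3 most alike genes reaching 5 CPM in a type, and the 3 list genes with the smallest p in each neuron class. One gene that this rule names is not reported here. Per-library totals limit precision: 3 UMIs equal 0.0836 to 0.0899 CPM over all nuclei, counting error only.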

Additional observations from a re-analysis of the deposited data

How the results depend on the processing

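None of the 13 alternatives called any of the 7 genes: DESeq2, RLE size factors, no filter on low counts, a fit that was not robust, the replicate block, each library left out, at least 1000 genes per nucleus, doublets kept, Leiden resolution 2, and summed UMIs thinned at random to equal depth. The list of 50 genes had 0 calls, except when a library was left out (0 to 10 pairs; 10 without saline replicate 2, 1 without either METH library); the cause was not tested. Over all genes the calls, higher and lower, were 31 and 3, against 39 and 0 with DESeq2, 120 and 42 without the filter, 156 and 63 with the replicate block, 168 and 84 without METH replicate 1, 84 and 33 without METH replicate 2, 70 and 27 without saline replicate 1, and 542 and 328 without saline replicate 2. The labels do not pair the libraries; same-numbered libraries deviated together with a correlation of 0.178 over all nuclei, -0.0591 in excitatory and -0.0255 in inhibitory nuclei, and the block called 0 of the 7 genes.

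Of 430 log2 fold changes under alternatives, 399 kept their direction and 31 changed it; the cause was not tested. With a library left out, values ranged from -0.49 to 0.49 for Penk in Vip-like and -0.29 to 0.49 in inhibitory nuclei, from -0.075 to 0.49 for Pdyn in Sst-like and -0.17 to 0.48 in inhibitory nuclei, and from -0.50 to 0.028 for Pnoc in Lamp5-like, -0.11 to 0.63 in Vip-like and -0.30 to 0.25 in inhibitory nuclei. For Oprd1 they ranged from -0.069 to 0.22 in excitatory and -0.030 to 0.092 in inhibitory nuclei, for Oprk1 from -0.36 to 0.084 in OPC-like and -0.22 to 0.40 in excitatory nuclei, and for Oprl1 from -0.53 to 0.0063 in inhibitory nuclei. The class-by-treatment term ranged from -0.085 to 0.87 for Penk and from -0.027 to 0.028 for Oprm1. Thinning the summed UMIs at random to equal depth leaves expected levels as they were and does not test depth per nucleus. With it, values turned to 0.068 for Penk in Vip-like nuclei, 0.25 for Pnoc in Lamp5-like and 0.17 in inhibitory nuclei, -0.0073 for Oprd1 in Pvalb-like nuclei, -0.15 for Oprm1 in the type led by Vwc2l and Htr4, and -0.069 for the Oprm1 class-by-treatment term. That term was also -0.012 with RLE size factors, -0.011 with DESeq2 and -0.013 with doublets kept; Penk in inhibitory nuclei was -0.035 with doublets kept, and Oprd1 there -0.015 with at least 1000 genes per nucleus. Oprm1 stayed above 0 in the other 7 excitatory types and in Sst-like and microglia-like nuclei under every alternative that could be fitted. Allowing the 7 genes among the variable genes selected 0 of them, so that run repeated the clustering already made and is not counted as an alternative. Depth limits Pdyn and Oprk1 most, each of which could be tested in 3 of 20 groups.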

Other observations

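Vip-like nuclei that held a Penk UMI also held Oprm1 more often than those that did not. Before thinning, 48.7% of the 119 nuclei with Penk and 24.1% of the 1073 without it had an Oprm1 UMI, with median depths of 3156 and 2521 UMIs. When Oprm1 was read after thinning each nucleus to 1000 UMIs, the shares were 23.9% of 117 nuclei and 11.2% of 1007. The nuclei with Penk had the higher thinned share in each library: 21.2% against 10.6% and 22.2% against 11.8% in METH replicates 1 and 2, and 28.6% against 11.3% and 25.0% against 11.3% in saline replicates 1 and 2. Each share with Penk rests on 21 to 36 nuclei, and nuclei of 1 library are not replicates, so no test was made.

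For Pnoc in Vip-like nuclei, the thinned Oprm1 shares were 17.6% of 119 nuclei with it and 11.9% of 1005 without it. The nuclei with Pnoc had the higher share in METH replicate 1 (18.9% against 10.8%). So did those of saline replicates 1 and 2 (22.2% against 11.8% and 21.9% against 12.1%). METH replicate 2 had the reverse, 9.38% against 13.5%. Pnoc gave a different picture in its own leading type. Of Lamp5-like nuclei, 25.0% of the 76 with a Pnoc UMI and 22.6% of the 403 without it had Oprm1 after thinning, and the order differed between libraries (28.6% against 23.9% and 25.0% against 22.1% in the METH libraries, 22.2% against 18.3% and 23.8% against 29.7% in the saline libraries). In Sst-like nuclei the thinned shares were 13.4% of 67 nuclei with Pnoc and 4.99% of 1203 without it, and 7.84% of 51 nuclei with Pdyn and 5.33% of 1219 without it. In METH replicate 2 none of 9 Sst-like nuclei with Pnoc had Oprm1.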
